A study of Mus musculus with 24 samples.

Results

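STAU2 RNA immunoprecipitation (RIP) from mouse embryonic cortex at embryonic day 11.5 (E11.5) is described here through every peak that the authors listed for that day. A peak is a stretch of the genome over which the authors called a difference in reads between STAU2 RIP and input. All peaks of the plus-strand list (3271) and of the minus-strand list (3259) were taken, 6530 of the 29007 peaks listed for the 4 days of the series, the later 3 being E13.5, E15.5 and then E17.5. At E11.5 the labels give 3 STAU2 RIP libraries and 3 input libraries. Each replicate came from cortices of a whole litter that were pooled, so a library averages over littermates and over all cell types of the dissected tissue. RIP used a mouse monoclonal antibody against STAU2, and no group carried a mutation, transgene or treatment according to the labels, which give no strain. The comparison was STAU2 RIP against input of the same day. A control RIP made with a T7 antibody and measured by qPCR was not analysed here. No replicate has values of its own in the peak lists, so no SD can be given and no test between days was possible. Counts and shares below describe the lists, and exact Clopper-Pearson intervals (95%) cover counting error of peaks only.

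Staufen 2 (STAU2) belongs to a family of proteins that bind double-stranded RNA, mostly stems that a transcript forms by folding back on itself. In neurons it travels in RNA granules along microtubules and takes part in the localisation, translation and decay of messenger RNAs (mRNAs). In the developing cortex it is known from dividing radial glia, the neural stem cells that line the ventricle, where it is passed unequally to the daughter cells. At this early age the cortical wall consists mostly of such progenitors, with the earliest neurons above them.

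The sequences below show what STAU2 RIP peaks of E11.5 look like as RNA. They are the strongest coding-sequence and 3' untranslated region (UTR) peaks, peaks with long or tightly folded stems, and peaks in progenitor and neuronal genes described further on. Sequence is from GENCODE vM21 transcripts (mouse genome build GRCm38, the build called mm10), written 5' to 3' as DNA letters. Capitals mark bases that RNAfold paired in the minimum free energy fold of the whole peak, and lower case marks unpaired bases. Of a peak in a UTR, a hairpin of at most 30 bases is shown. The rank is the position of the peak's p-value, as deposited by the authors, among the 6530 peaks of the day.
Zfand3, CDS, rank 2, chr17:30135346-30135503, plus strand: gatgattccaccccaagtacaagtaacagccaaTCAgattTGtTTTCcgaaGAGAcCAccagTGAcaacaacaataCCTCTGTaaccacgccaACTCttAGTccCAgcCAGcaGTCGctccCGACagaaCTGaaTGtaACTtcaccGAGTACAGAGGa
Ccdc50, 3' UTR, rank 5, hairpin at chr16:27450410-27450429, plus strand: GAACAAAGgttCTTTgGTTC
Ttc32, 3' UTR, rank 16, hairpin at chr12:9035493-9035520, plus strand: TTCAGTTTTTatattgtcAGAGATTGAA
Satb1, CDS, rank 17, chr17:51740135-51740184, minus strand: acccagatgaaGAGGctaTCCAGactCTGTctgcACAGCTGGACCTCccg
Mir17hg, long noncoding RNA exon, rank 18, chr14:115045351-115045400, plus strand: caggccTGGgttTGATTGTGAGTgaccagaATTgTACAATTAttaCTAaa
Gm13693, CDS, rank 22, chr2:83963442-83963564, plus strand: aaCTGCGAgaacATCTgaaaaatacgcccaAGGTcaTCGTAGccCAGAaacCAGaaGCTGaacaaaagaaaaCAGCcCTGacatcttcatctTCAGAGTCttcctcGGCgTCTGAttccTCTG
Cenpe, CDS, rank 106, chr3:135241015-135241080, plus strand: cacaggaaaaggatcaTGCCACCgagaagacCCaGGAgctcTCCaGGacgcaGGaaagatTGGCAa
Calm3, 3' UTR, rank 180, hairpin at chr7:16916838-16916866, minus strand: TCTAGCAAaCAgcaatTGaTTGaCTgAGA
Mki67, CDS, rank 187, chr7:135696888-135697108, minus strand: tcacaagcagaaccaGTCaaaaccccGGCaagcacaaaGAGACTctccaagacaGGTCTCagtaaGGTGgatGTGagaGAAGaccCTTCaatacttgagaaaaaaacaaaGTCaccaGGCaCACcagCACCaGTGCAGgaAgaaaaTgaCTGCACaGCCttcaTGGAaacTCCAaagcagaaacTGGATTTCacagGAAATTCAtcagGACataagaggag
Gsk3b, 3' UTR, rank 213, hairpin at chr16:38244576-38244602, plus strand: GAGAaagTTTGGCcaatGCCAGATCTC
Msx1, noncoding exon, rank 306, chr5:37823743-37823904, minus strand: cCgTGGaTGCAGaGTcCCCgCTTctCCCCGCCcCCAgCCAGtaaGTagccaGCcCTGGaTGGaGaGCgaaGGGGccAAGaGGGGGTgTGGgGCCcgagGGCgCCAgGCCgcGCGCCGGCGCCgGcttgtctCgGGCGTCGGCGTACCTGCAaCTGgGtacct
Map1b, CDS, rank 541, chr13:99434419-99434577, minus strand: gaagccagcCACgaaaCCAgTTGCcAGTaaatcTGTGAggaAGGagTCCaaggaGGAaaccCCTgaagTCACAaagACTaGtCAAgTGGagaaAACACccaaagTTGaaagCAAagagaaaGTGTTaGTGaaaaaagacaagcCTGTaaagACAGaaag
Pafah1b1, 3' UTR, rank 726, hairpin at chr11:74677131-74677155, minus strand: TCTGTGTAATggggATTACACAtGA
Hmga2, 3' UTR, rank 841, hairpin at chr10:120362392-120362413, minus strand: TTTTTaCAtactttTGcAAAAA
Dnajc30, CDS, rank 3831, chr5:135064268-135064316, plus strand: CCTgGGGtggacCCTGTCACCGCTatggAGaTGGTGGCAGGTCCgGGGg
Foxo4, CDS, rank 3862, chrX:101254999-101255089, plus strand: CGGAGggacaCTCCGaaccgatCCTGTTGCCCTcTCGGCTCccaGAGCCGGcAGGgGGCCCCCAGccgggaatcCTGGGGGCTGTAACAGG
Elavl2, 3' UTR, rank 5467, hairpin at chr4:91252573-91252594, minus strand: CAAAGAGataagagcCTCTTTG
The Zfand3 peak, the strongest in a coding sequence, was folded into short stems of at most 7 pairs in a row. The Foxo4 and Msx1 peaks were paired over most of their length (70.3% and 66.7% of bases), and the Gm13693 sequence recurs letter for letter in the peaks of the predicted genes Gm13694, Gm13695 and Gm13696.

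The peaks were short and of very unequal signal. Their median width was 82 bp, 1231 of them (18.9%) were exactly 50 bp and 70 were over 5000 bp. Signal is the deposited coverage-like value of a peak; the libraries and the scaling behind it are not stated, so it is compared between peaks of E11.5 and not between days. It ran from 3.15 to 89238 with a median of 24.7. The p-values of the authors reached down to 7.13e-08, and their q-values (p adjusted for the number of regions tested) lay below 0.01. From p and q, 29797 candidate regions stood behind the 2 lists, of which 21.9% were listed. Whether the authors' test was one-sided is not stated, so a listed peak is a called difference from input and its direction is not given. The lists hold no input levels and no read totals, so whether abundant transcripts were called more often was not tested.

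By annotation at the peak midpoint on the same strand, 3187 peaks (48.8%, interval 47.6 to 50.03) lay in introns. A further 1168 (17.9%) lay in coding sequence (CDS), 1144 (17.5%) in 3' UTRs, 85 (1.30%) in 5' UTRs and 558 (8.55%) in exons that are noncoding. Another 189 (2.89%) lay antisense to a gene and 199 (3.05%) outside annotated genes. The intron share on the other days was 34.3%, 27.7% and 27.5%, in order of age. Among the 2584 peaks in exons of protein-coding genes, CDS (45.2%, 43.3 to 47.1) and 3' UTR (44.3%, 42.3 to 46.2) held nearly equal shares at E11.5, while 55.6%, 60.2% and 59.1% of such peaks lay in 3' UTRs on the later days. These shares were not tested between days, and differences in depth or preparation of the libraries cannot be told apart from the day.

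**Figure D1:**
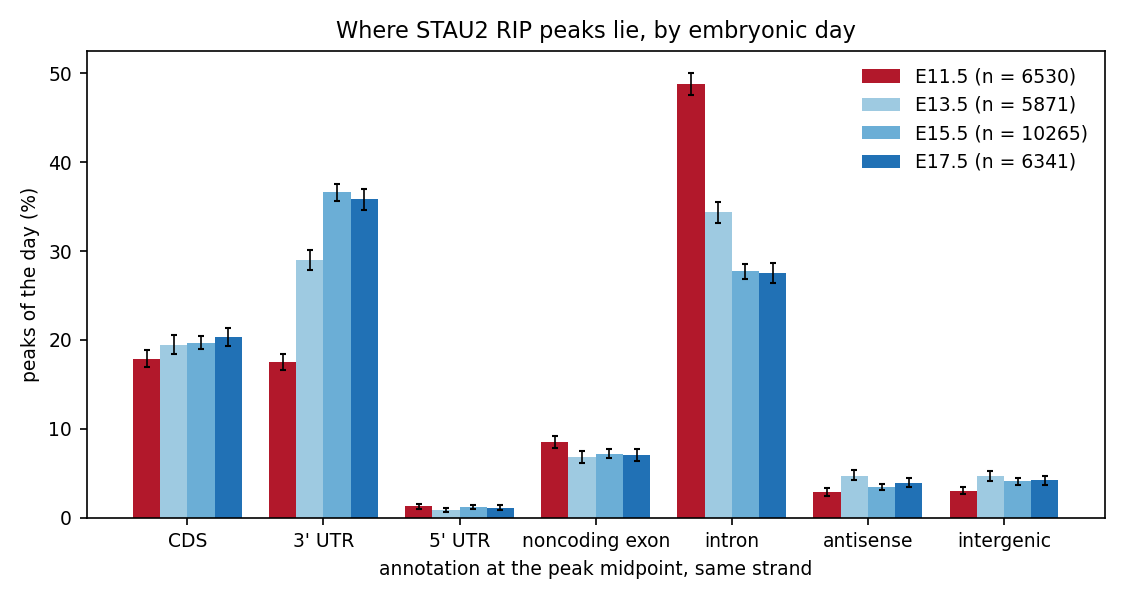
Share of peaks (vertical axis, % of the peaks of a day) by the annotation at the peak midpoint (horizontal axis) for the 4 days, with exact 95% intervals as error bars. The E11.5 bar stands at 48.8% in introns and at 17.5% in 3' UTRs.

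Most intronic peaks of E11.5 sat in a small number of introns, and within an intron they had nearly the same signal. Of 2645 peaks that lay whole in an intron of a gene's longest coding isoform, 2092 (79.1%) fell in 199 introns with 3 or more peaks, in 192 genes; these are 32.0% of all E11.5 peaks. In the median such intron the highest signal was 1.04 times the lowest, and 185 of the 199 introns stayed within 1.25 times. Exons with 3 or more peaks (76 exons, 280 peaks) had a median ratio of 2.92, and 3 of them stayed within 1.25 times. The coefficient of variation of signal was 1.46% in the median intron and 49.4% in the median exon.

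Gpc4, which encodes the heparan sulfate proteoglycan glypican 4, held 118 peaks in its intron 1 (chrX:52091801-52164615), with signals from 11.9 to 14.6. Those peaks covered 57200 of the intron's 72815 bp. Reep3, a gene for a protein of the endoplasmic reticulum, held 118 peaks in intron 1 (chr10:67063072-67096789) that ran from 86.7 to 89.8, while its 6 peaks in the 3' UTR ran from 17.5 to 110. Reep3 signal was level over the intron and uneven over the 3' UTR. The intron of Prkar2a, a regulatory subunit gene of protein kinase A, held 55 peaks between 98.95 and 100.1, and intron 3 of Plekha5 held 109 between 22.8 and 24.95. Nfib, a transcription factor gene of cortical development, had 94 peaks between 17.0 and 20.1 in intron 3, and Sox6 had 85 between 19.6 and 21.3 in intron 2. In Upf2, a factor of nonsense-mediated mRNA decay and the gene of the 2 strongest intronic peaks (rank 3 and 4), those peaks had signals of 42.1 and 43.1.

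Ptn, which encodes the growth factor pleiotrophin secreted by radial glia, showed the same level in exons. Its 87 intronic peaks ran from 74.2 to 77.2 with a median of 74.3, and 7 of its 8 peaks in the 3' UTR, all within exon 4 of the longest isoform, ran from 74.2 to 74.97. Its CDS peak stood lower, at 46.9. The uncharacterised transcript D230049E03Rik, counted as noncoding exon, lies in intron 9 of Zc3h14, whose 34 peaks ran from 33.7 to 35.4.

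The same held on the later days, where introns with 3 or more peaks had median ratios of 1.02, 1.02 and 1.02 and held 21.8%, 12.2% and 11.4% of all peaks. Without those introns 27.8% of the remaining 4438 peaks of E11.5 were intronic (26.4 to 29.1), against 17.9%, 19.4% and 18.9% on the later days. Among the 14 exceptions, intron 1 of Rps6ka3 had 101 peaks with a median of 54.9 and a lowest of 5.36. The intron 1 of Gm20388, a read-through model of 4384418 bp that spans other genes, had signals from 6.40 to 1656. Whether the gaps of spliced reads were counted as coverage is not given in the sources used here and was not tested. Ptn's intronic peaks lay outside its longest isoform and were not removed by that step.

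**Figure D2:**
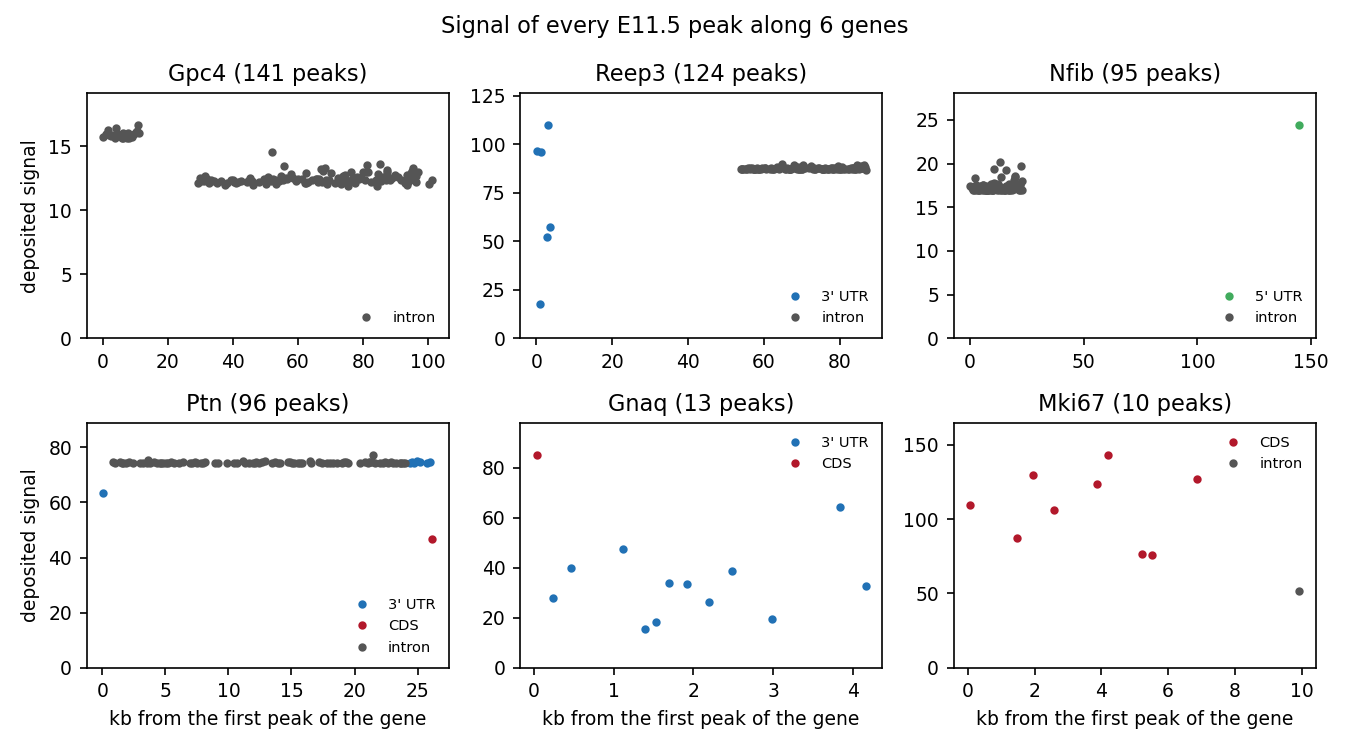
Deposited signal of every E11.5 peak (vertical axis, from 0) against distance from the gene's first peak (horizontal axis, kb) for 6 genes, coloured by class. In Gpc4, Reep3, Nfib and Ptn the intronic peaks form level lines, at 74.2 to 77.2 in Ptn, while the exonic peaks of Gnaq spread from 15.4 to 85.1.

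**Figure D3:**
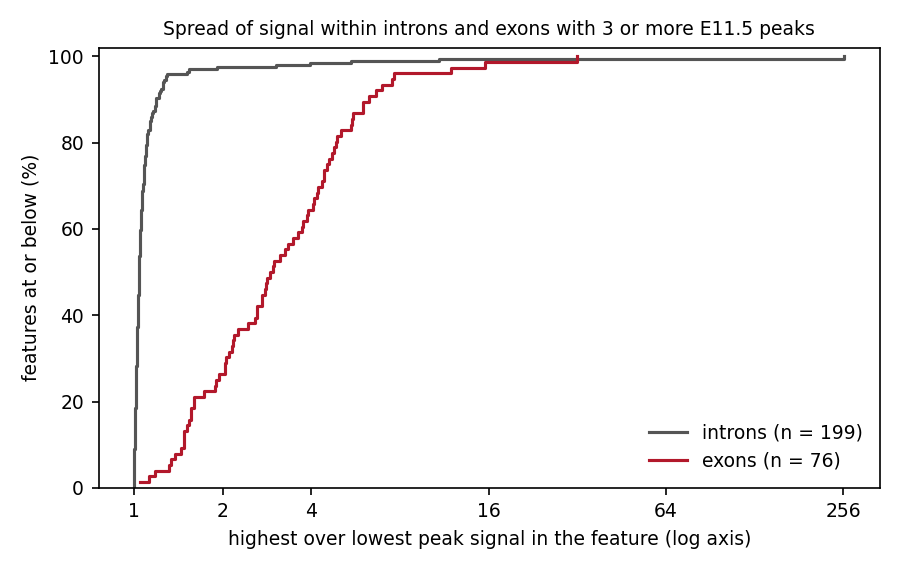
Cumulative share (vertical axis, %) of the 199 introns and 76 exons with 3 or more E11.5 peaks whose highest peak signal over the lowest (horizontal axis, log scale) is at or below a value. The intron curve climbs steeply near 1, with a median of 1.04, and the exon curve has a median of 2.92.

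An exon of 1992 protein-coding genes shared at least 1 bp with an E11.5 peak on its strand, 9.09% of 21924 annotated symbols. These are called exonic peaks of the gene here, also where their midpoint lies in an intron. Of the genes 1298 (65.2%) had 1 exonic peak, and the median gene had an exonic length of 4897 bp against 3499.5 bp over all protein-coding genes. Among the 10 genes with the strongest p, Upf2 was the one whose strongest peak lay in a level intron. Zfand3, a zinc finger gene, had a CDS peak with a signal of 138. The peak of Ccdc50 (signal 63.2) lay in the 3' UTR of this ubiquitin-binding adaptor gene. Atf4, a stress-responsive transcription factor that is itself under translational control, had a CDS peak of 422 bp (signal 218, rank 11) and another of 104 bp (signal 721, rank 5378), so its stronger p went with its lower signal.

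Rfng, an enzyme that adds sugar to Notch receptors, had a 3' UTR peak of 448 bp (signal 56.8). Satb1, a chromatin organiser of the nucleus, had a CDS peak of 50 bp (signal 54.3). Gng3, a G protein gamma subunit gene of neurons, had a 3' UTR peak (chr19:8837880-8838262, signal 70.6, rank 19) that was overlapped by a peak on each of the other 3 days. Arl8a, which moves lysosomes along microtubules, had 3 exonic peaks with signals from 43.8 to 101. In Ttc32 all 4 peaks fell within chr12:9035069-9035803 and ran from 148 to 155, a spread of 1.04 times that was as level as in the introns described above.

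Several genes carried long rows of exonic peaks. Gnaq, a G protein alpha subunit gene, had 13 peaks over 4241 bp of its last exon (chr19:16383204-16387463), 12 in the 3' UTR and 1 in the CDS. The CDS peak was the highest, at 85.1, and the lowest stood at 15.4. Mki67, the proliferation marker Ki-67, had 10 peaks, of which 8 lay in its long exon 12 (chr7:135694232-135701067) with signals from 75.9 to 143. Hmga2, a chromatin protein gene of young neural stem cells, had 5 peaks in its last exon from 126 to 516. Map1b, a microtubule-associated protein gene of axons, had 7 peaks from 33.0 to 95.3, 3 in the CDS and 4 in the 3' UTR. Pabpc1, the poly(A)-binding protein gene, had 9 peaks from 355 to 3480, but it has processed pseudogenes, so reads there can be shared. Setd5 also had 13 exonic peaks, of which 8 did not lie whole in an intron with 3 or more peaks. Among these 8, the peaks at chr6:113121797-113122105 (23.8) and chr6:113127932-113128424 (24.2) crossed the ends of intron 15. The peaks whole in that intron ran from 23.4 to 24.6.

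Of the 1992 genes, 522 (26.2%) had no exonic peak on another day, 541 had one on 1 other day, 540 on 2 and 389 on all 3. Of the 522, 502 had no peak anywhere in the gene, introns included, on another day. The share of single-day genes was 19.4%, 31.1% and 26.1% on the later days, so E11.5 held neither the highest nor the lowest value. The E11.5-only genes had weaker peaks, with a median best rank of 3304 against 2606.5 for genes also listed on another day, and 76.6% against 61.1% of them had 1 exonic peak. A gene missing from another day's list was not called there, which does not show that STAU2 left it unbound.

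By p, Upf2, Ccdc50, Ttc32 and Satb1 led the genes with no peak on another day. H3f3a, which encodes the replication-independent histone H3.3, came next with a CDS peak at chr1:180803066-180803206 (signal 1194, rank 30). Qser1, a gene of DNA methylation control, had 4 exonic peaks with signals from 15.7 to 43.7, and Ccdc88c, a regulator of Wnt signalling, had 1 in its CDS (signal 9.86, rank 61). Cux1, a transcription factor gene of upper-layer neurons, had a 3' UTR peak (chr5:136248748-136248965, signal 65.1) and a peak of 16691 bp with its midpoint in an intron. Hcfc1, a chromatin-associated cell cycle cofactor, had 2 peaks of 15.3 and 17.1. Cenpe, the kinetochore motor of mitosis, had 2 peaks, in the CDS at 66.5 and a second at 18.9. Further down, Bmi1, a Polycomb gene that keeps stem cells dividing, stood at rank 142 with a CDS peak of 140. Calm3, a calmodulin gene, stood at rank 180 with a 3' UTR peak of 262. Both were chosen after their values were seen and need not be the next genes by p.

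Gene lists were read as the number of members with an exonic E11.5 peak, beside 9.09% of all protein-coding genes. That background includes genes that cortex does not express, and list members had longer exons than the median gene in most lists. A share above it is therefore a description and was not tested against length or abundance.

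**Figure D4:**
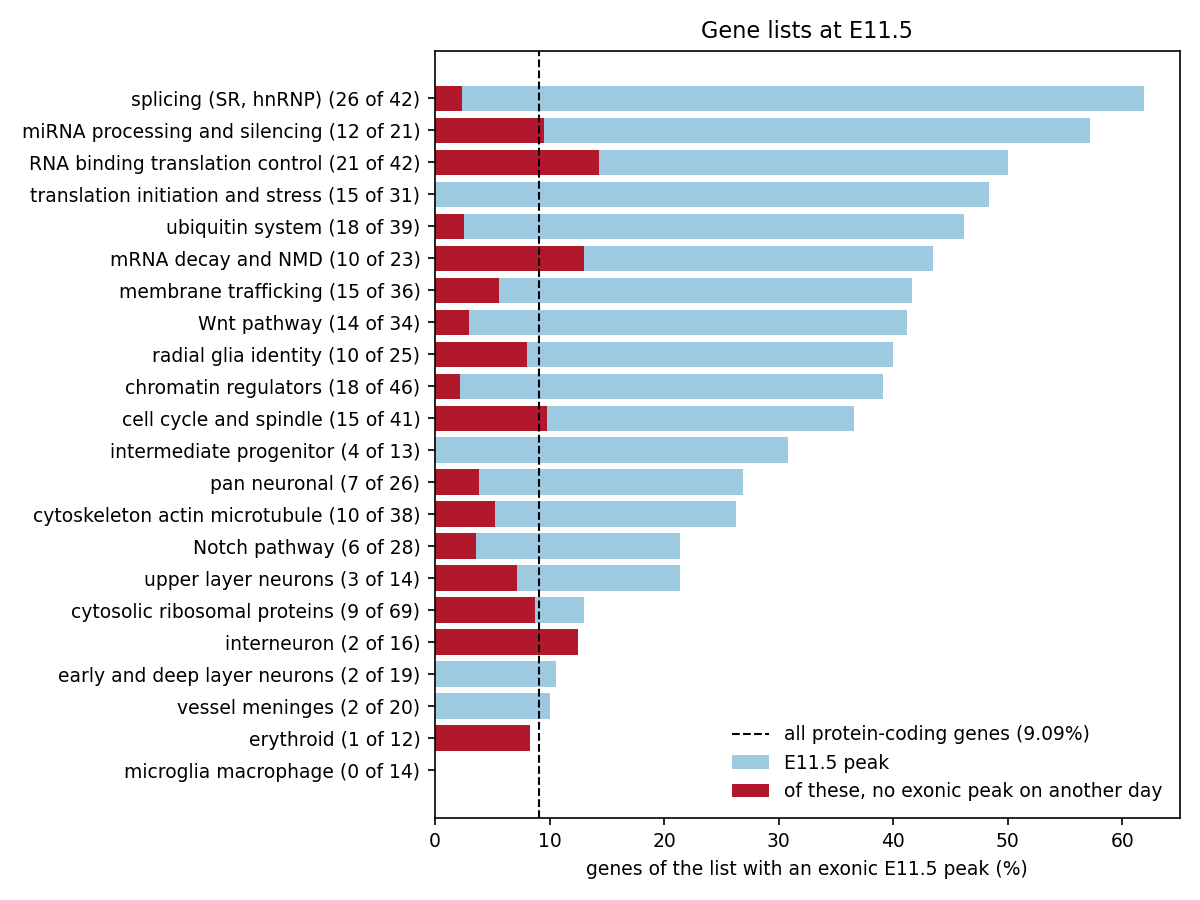
Share of each list's annotated genes with an exonic E11.5 peak (horizontal axis, %), with the part that had no exonic peak on another day in red and the 9.09% of all protein-coding genes as a dashed line. The splicing list stands at the top with 61.9%, and the microglial list is at 0.

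The 4 lists with the highest shares were splicing, microRNA pathway, RNA-binding and translation genes. Among splicing factors of the SR and hnRNP families 26 of 42 (61.9%) had a peak, with a median exonic length of 6338.5 bp. Hnrnpa2b1 led with a CDS peak (signal 909, rank 47), followed by Srrm1 (42.1, rank 215), Srrm2 (11.5, rank 544) and Srsf6 (67.8, rank 793), all in the CDS. Of the 26, 1 member, Hnrnpa1, had no peak on another day, beside 26.2% of all E11.5 genes. Its CDS peak had a signal of 4267, and the gene has many processed pseudogenes with which reads can be shared. The list had more members called on the later days (33, 37 and 30), when 11.8%, 19.9% and 13.6% of all genes were called.

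In the microRNA pathway 12 of 21 genes (57.1%) had a peak. They covered its steps: Drosha (CDS, 9.86) and Dgcr8 (64.3, midpoint in an intron) act on the primary transcript, Dicer1 (3' UTR, 31.0), Tarbp2 and Prkra act on the hairpin, and Ago2 (3' UTR, 16.2, rank 78) holds the mature microRNA. Tnrc6a, Ddx6, Cnot3, Cnot6 and Cnot7, which silence and deadenylate the target, also had peaks, led by Cnot6 (CDS, 78.0, rank 122). Lin28b, which blocks maturation of let-7 in young progenitors, had a 3' UTR peak of 30.4. Neither Lin28b nor Tarbp2 had a peak on another day, 2 of the 12 beside 26.2% of all E11.5 genes.

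Of 42 RNA-binding and translation control genes, 21 (50%) had a peak. Celf2, a splicing and mRNA stability regulator, led with 6 exonic peaks from 12.01 to 143, 4 of them in its 3' UTR. Celf3 (CDS, 10.4), Nova1 (75.6, a peak across the edge of the gene) and Elavl1 (CDS, 111) followed. The Elavl family, RNA-binding proteins of AU-rich elements, was represented by all 4 members, Elavl1 to Elavl4. Qk, Elavl4, Syncrip, Cpeb4, Lin28b and Msi2 had no peak on another day, 6 of the 21 beside 26.2% of all E11.5 genes. Among these 6, Qk, a regulator of glial and progenitor RNA, had 3 peaks with its strongest by p in the CDS (220). Elavl4, with its strongest exonic peak by p in the 5' UTR (19.4), also held 13 peaks in its intron 1 from 17.4 to 18.5. Stau2 itself had 1 peak, in the CDS (chr1:16374734-16374808, signal 13.7, rank 631), and Stau1 had none.

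Translation factors (15 of 31, 48.4%) were led by Atf4, Pabpc1, the amino acid sensor kinase gene Eif2ak4 (3' UTR, 5.92) and Eif4g3 (30.9, midpoint in an intron). Each of the 15 was called on another day too, as were 1470 of all 1992 E11.5 genes. In mRNA decay 10 of 23 (43.5%) had a peak. Besides Upf2, these included Zfp36l1 and Zfp36l2, which encode proteins that destabilise AU-rich mRNAs. Zfp36l1 had 4 exonic peaks from 43.6 to 106, and its strongest by p, in the 3' UTR, had the lowest signal. Zfp36l2 had a peak in the 5' UTR (17.7). Upf2, Zfp36l1 and Zfp36l2 had no peak on another day, 3 of the 10 beside 26.2% of all E11.5 genes.

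Genes of progenitor identity came next in the description. Of 25 radial glia genes 10 (40.0%) had a peak, among them Hmga2, Lhx2, Emx2, Zic1, Notch1, Cdh2, Lrrn1 and Ddx3x. Lhx2, a selector gene of cortex, had 3 exonic peaks with the strongest by p in its 3' UTR at 675. Zic1, a zinc finger transcription factor gene (CDS, 20.0), had no peak on another day. It was 1 of 2 such genes among the 10, beside 26.2% of all E11.5 genes. Of 13 intermediate progenitor genes 4 had a peak, among them the proneural genes Neurog1 (3' UTR, 4.12) and Neurog2 (5' UTR, 10.8). These low signals stand beside 414 for Tead2, a factor of the Hippo pathway.

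Cell cycle and spindle genes had peaks in 15 of 41 cases (36.6%). Cdc25b, the phosphatase that starts mitosis, led with a 5' UTR peak (87.4, rank 54). Cenpe, cyclin D2 (Ccnd2, 3' UTR, 461) and Mki67 followed, and Cenpf, a kinetochore gene, had 7 exonic peaks. Ccnb1 (3' UTR, 75.6) and Ccna2 (CDS, 107), the cyclins of mitosis and of S phase, Nusap1 (3' UTR, 34.8) and Cenpe had no peak on another day. They were 4 of the 15, near the 26.2% of all E11.5 genes with no exonic peak on another day. The inhibitors Cdkn1b (23.9) and Cdkn1c (141) each had a 3' UTR peak.

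In the Wnt pathway 14 of 34 genes (41.2%) had a peak, from receptor to nucleus. Sfrp1, a secreted inhibitor of the ligands, had a CDS peak (102.05), and the receptor genes Fzd2, Fzd3 and Lrp6 had peaks with signals of 29.9, 82.3 and 10.8. Within the cell, both glycogen synthase kinase genes had 3' UTR peaks of like signal, Gsk3b at 85.8 and Gsk3a at 83.4, beside Apc, Axin1, Csnk1a1 and Dvl3. In the nucleus Tcf7l2 had the strongest p of the list (CDS, 17.5, rank 45), ahead of Bcl9, and Tcf7l1 and Lef1 also had peaks. The Notch list had fewer, 6 of 28 (21.4%). These were Rfng, the protease gene Adam10, the protease subunit gene Ncstn, the receptor Notch1, the nuclear partner Rbpj and the inhibitor Numb. Numb (CDS, 11.8), which is shared unequally in division, had no peak on another day, 1 of the 6 beside 26.2% of all E11.5 genes.

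Among chromatin regulators 18 of 46 (39.1%) had a peak, with a median exonic length of 10590.5 bp and a median rank of 4022 against 2746.5 for all E11.5 genes. Kmt2d, a histone methyltransferase, led with a CDS signal of 8.05 at rank 136. In membrane trafficking 15 of 36 (41.7%) had a peak, 10 of them Rab GTPases, with Rab2a (3' UTR, 113) and Rab14 (CDS, 85.1) behind Arl8a. The ubiquitin system had 18 of 39 (46.2%), led by the conjugating enzyme gene Ube2d1 (3' UTR, 137, rank 73) and by Usp9x.

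Neuronal lists had lower shares than the lists described so far except Notch (21.4%). The pan-neuronal share was above that of Notch, and the upper-layer share equalled it. Of 26 pan-neuronal genes 7 (26.9%) had a peak: Map1b, Tubb2b (CDS, 161), Ina, Stmn4, Map2, Ncam1 and Crmp1. Of 19 genes of early and deep-layer neurons 2 (10.5%) did, Fezf2 (CDS, 24.2) and Tbr1 (3' UTR, 29.97). Of 14 upper-layer genes there were 3 (21.4%), Cux1, Lhx2 and Lmo4, of which Lhx2 is also on the radial glia list. Lmo4 also held 13 peaks in its intron 4 from 29.3 to 30.1, and the count stayed at 3 without introns holding 3 or more peaks. In the interneuron list 2 of 16 (12.5%) had a peak, Dlx2 (CDS, 16.3) and Sp8 (3' UTR, 8.56). Neither had one on another day, as was the case for 26.2% of all E11.5 genes, and neither remained with the stronger 50% of the peaks. The deep-layer and interneuron shares were near the 9.09% of all genes. Of 38 cytoskeletal genes 10 (26.3%) had a peak, led by Capzb, which caps actin filaments (3' UTR, 128 and 1197), Wasf2 and the lissencephaly gene Pafah1b1 (59.6).

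Cytosolic ribosomal protein genes had a peak in 9 of 69 cases (13.04%), near the background, with a median exonic length of 1830 bp. Of these 9, 6 had none on another day, namely Rpl41, Rpl27, Rpl30, Rps6, Rpl13 and Rps28, and 2, 6 and 1 members were called on the later days. Over all genes 26.2% of those with an E11.5 peak had none on another day, and 11.8%, 19.9% and 13.6% were called on the later days. With the stronger 50% of the peaks, 2 of the 69 genes had a peak at E11.5, while the count over all genes went from 1992 to 1131. Rpl41 had the highest signal of the list (3' UTR, 4828, chr10:128548148-128548243), and Rps6 had 2197 in the CDS. The Rpl13 peak (1656) lay within the long intron of Gm20388 described above. Ribosomal protein genes have many processed copies with which reads may be shared, and the part of such copies in the result was not tested.

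Markers of other cell types that dissected cortex can hold were near or below the background. For blood vessels and meninges 2 of 20 genes were called, Igf2 (3' UTR, 756) and Col4a1 (3' UTR, 23.2). None of 14 microglial and macrophage genes was. In the erythroid list 1 of 12 was called, the embryonic alpha-like globin gene Hba-x, which had 3 CDS peaks of 2033, 2039 and 5152 and none on another day. Since the lists give called regions and no levels, the share of such cells in the tissue was not measured.

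Outside coding genes, 250 of the 558 noncoding-exon peaks lay in processed pseudogenes and 187 in noncoding isoforms of coding genes, while 40 lay in long intergenic noncoding RNAs. The strongest peak of the whole day by p lay on the pseudogene Gm16580 (chr17:26269429-26269946, signal 810, p = 7.13e-08 in the authors' deposited list). Gm5265, Gm15427, Gm8276 and Gm46312 were the next pseudogenes. In all, 280 peaks in 111 sets had a signal, width and p identical to another peak's (to 9 decimals), and 134 of them in 46 sets lay in different genes, such as Gm13693 and Gm13694 (51.8 each) and Gm13695 and Gm13696 (52.6 each). These 4 genes carry the sequence printed above for Gm13693, so their peaks cannot be assigned to a single locus.

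The long noncoding RNA Mir17hg, the primary transcript of the miR-17-92 microRNA cluster, had a peak of 50 bp (signal 15.0), 845 bp from the hairpin of Mir92-1 and on no hairpin. Peaks lay over 3 of 1005 RefSeq microRNA hairpins, Mir7664, Mir7578 and Mir5125, and all 3 were in introns of coding genes. H19, an imprinted noncoding RNA of the embryo, had a signal of 4681 at chr7:142575924-142576252. The 10 highest signals also included peaks antisense to Jarid2 (89238) and Mphosph8 (29533), introns of Il31ra (50741) and Cdk8 (22767) and 3 peaks outside genes. By p these 7 ranked between 2051 and 5991, so the highest signals did not go with the strongest p.

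Peaks at E11.5 were spread over the coding sequence. Over 1090 CDS peaks in longest isoforms, the median midpoint lay 54.1% along the CDS from its start, with 15.0% in the first quintile of its length and 21.5% in the last. On the later days the medians were 67.2%, 69.0% and 74.3%, and the last quintile held 34.0%, 35.5% and 42.4%. In 3' UTRs the median was 43.9% of the way from the stop codon at E11.5 (1128 peaks) and 48.7%, 48.1% and 52.7% later. Near the transcript end, within 200 nt, lay 10.5% (8.74 to 12.4) of the 3' UTR peaks of E11.5, against 13.9%, 11.3% and 15.4%. RNA quality and library fragment lengths are not in the lists, and their part in these positions was not tested.

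**Figure D5:**
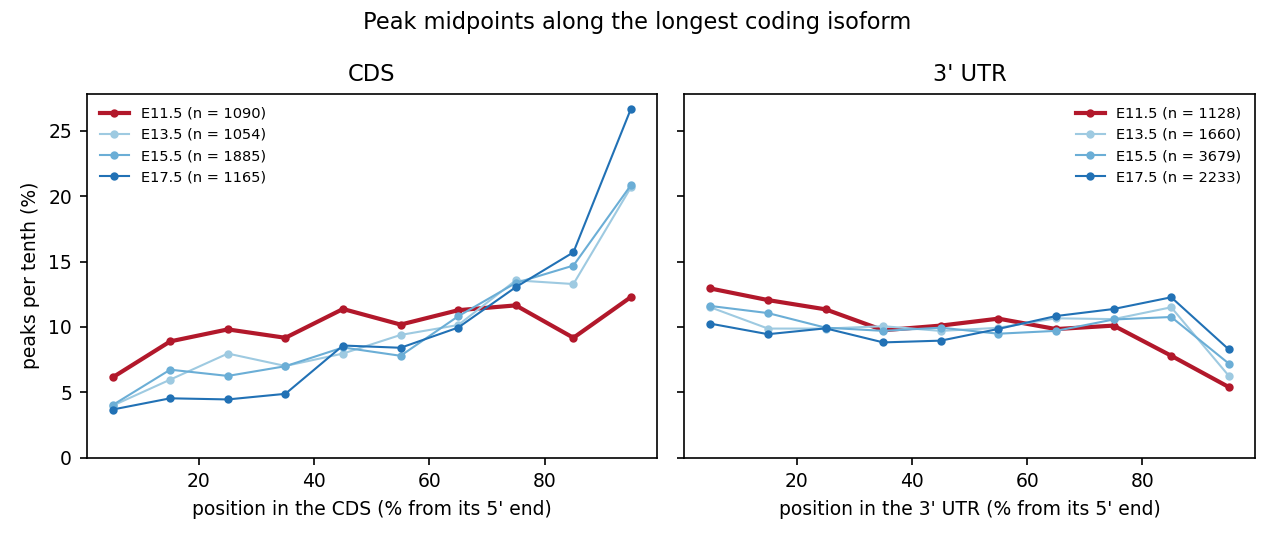
Share of peaks in each decile of length (vertical axis, %) of the CDS (left) and 3' UTR (right) of the longest coding isoform, from the 5' end to the 3' end (horizontal axis, %), with 1 line per day. The E11.5 line is flatter in the CDS than those of the later days and holds 12.3% in its last decile.

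For structure, 2669 of the 2955 peaks with a midpoint in an exon could be read whole from 1 exon at 30 to 300 bases and were folded alone. Their median GC content was 49.1% (quartiles 42.2% and 55.9%) and their median minimum free energy was -18.5 kcal/mol per 100 nt, where lower means more stable. The 5' UTR peaks had the highest GC (60%) and the lowest energy (-24.0), and 3' UTR peaks the reverse (46.6% and -17.2), with CDS peaks between (52.5% and -19.4). Energy follows GC and length, and no folding of other stretches of the same transcripts was made, so whether the peaks were more structured than their surroundings was not tested. On the later days the median energy was -19.5, -20.2 and -20.8, at median GC of 49.8%, 49.5% and 51.6%.

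Unbroken stems of 10 or more pairs were predicted in 108 of the 2669 peaks (4.05%). They came to 5.16% of the 3' UTR peaks (56), 5.97% of the 5' UTR peaks (4 of 67), 5.15% of the noncoding-exon peaks (23 of 447) and 2.34% of the CDS peaks (25), the lowest of the 4 classes. The longest, of 19 pairs, was in the Gsk3b 3' UTR peak (chr16:38244467-38244624); the hairpin printed above is another stem of that peak. Spop, a ubiquitin ligase adaptor gene, had a stem of 17 pairs in its 5' UTR within a TG repeat. The energy of that peak was -9.48 kcal/mol per 100 nt, against a median of -24.0 for 5' UTR peaks. Casc4 had a stem of 16 pairs in its 3' UTR. By energy per length, Foxo4, a forkhead transcription factor gene, was lowest at -53.5 kcal/mol per 100 nt with 70.3% GC, followed by the 5' UTR peak of Lrrn1 (-53.0), Unc119, Zfp36l2, Dnajc30 and Msx1 (-47.0). Msx1 encodes a homeobox factor of the dorsal midline. Tightly folded peaks held both strong and weak p-values: Msx1 ranked 306 and Unc119 6527, and further down the list by energy Cbln1 ranked 128 and Ppm1b 609.

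At the level of positions, 1363 of the E11.5 peaks (20.9%, 19.9 to 21.9) shared at least 1 bp with a peak of another day on the same strand: 609 with E13.5, 838 with E15.5 and 372 with E17.5. By class the share was 35.8% in 3' UTRs, 27.6% in the CDS and 12.96% in introns. Peaks of all 3 other days overlapped 74 E11.5 peaks. At the level of genes, 852 (42.8%), 1223 (61.4%) and 713 (35.8%) of the 1992 genes were also listed on the later days in order of age, which were 33.0%, 28.1% and 24.0% of the genes of those days. The other lists differed in length, with 5871, 10265 and 6341 peaks, and the part of their length in the overlap was not tested. Papola, the poly(A) polymerase gene, shows the difference between both levels: it had exonic peaks on all 4 days, but its strongest peak of E11.5 (chr12:105829091-105829194, CDS, signal 328) was overlapped by none of the others. Fkbp1a (3' UTR, 181), Hnrnpa2b1 and Hmgn5 (3' UTR, 20.7) had a strongest peak that was overlapped on 2 other days.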

How the data were processed

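RNA of 3 STAU2 RIP and 3 input libraries per day stood behind 2 peak lists, 1 per strand, in mm10 coordinates per the labels. Bedtools 2.17.0, Cufflinks 2.2.1 and TopHat2 2.0.9 (and TopHat with no version) are listed in the submitters' processing notes. No source used here names the peak caller or its test. The authors deposited a score, a signal, a p-value and a q-value per peak without column names. The deposited score was not used beyond a check that it falls as q rises, and the deposited signal and p-value were used to describe and rank peaks within E11.5. In 95.0% and 95.6% of the plus- and minus-strand peaks, the q-value was the p-value multiplied by 1 fixed number and divided by the peak's rank (to within 0.5 of that number), and that number was taken as the count of candidate regions. Of peaks over exactly 1 gene, 97.4% in the plus list and 3.64% in the minus list lay over a plus-strand gene. Read totals are not in the lists, so depth and the precision it sets are unknown.

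Classes were read at the midpoint from GENCODE vM21 in the order CDS, 3' UTR, 5' UTR, noncoding exon, intron, antisense and intergenic, with Python 3.11.15, pandas 2.3.3 and scipy 1.17.1; the class function was tested on simulated data. Folding used RNAfold 2.7.2. Genes were counted by symbol. Named were the strongest genes and peaks by p (over the day, per class, E11.5 alone, on all days), those with most or widest peaks or highest signal, and list members; Bmi1, Calm3, Ptn's levels and structural extremes beyond the lowest energies were chosen after their values were seen. The members and the 22 gene lists (639 annotated genes) were chosen with earlier results of these data known; a list of reported STAU2 cargo was dropped because its membership was uncertain. Some members of the lists are not reported here by name.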

Additional observations from a re-analysis of the deposited data

How the results depend on the processing

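No paired analysis was possible because the lists hold no value per replicate, and for the same reason no replicate could be left out. Of 38 alternatives to the main counts and shares, 23 moved them little. A count within 1.5 times of the main one was taken as little moved. The stronger 50% of peaks by p gave 1131 genes in place of 1992, 135 listed genes with a peak in place of 214 and an overlap with other days of 14.3% in place of 20.9%. That overlap was 16.6% where at least 50% of the E11.5 peak had to be covered, 17.5% without peaks over 5000 bp and 26.9% without introns holding 3 or more peaks, an alternative added after the level signal had been seen. The intron share of 48.8% came to 27.8% without those introns, 26.3% with the strongest peak of each gene and 53.5% on the longest isoform. The 3' UTR share of exonic peaks went from 44.3% to 49.3% (longest isoform) and 47.3% (strongest peak), and the CDS share from 45.2% to 47.7% (longest isoform). With 50 bases of transcript on each side, used because a genome sequence was not used here, median GC was 48.5% and median energy -23.5 kcal/mol per 100 nt, and peaks of 60 to 150 bp gave -19.3. The count of E11.5-only genes stayed between 434 and 520 under its 5 alternatives. Their share did not stay: with the stronger 50% of peaks it was 434 of 1131 genes (38.4%) in place of 26.2%. The single-day shares of the later days were then 31.9%, 46.4% and 39.7%. Leaving out the introns took 26 genes from the list, among them Braf, Supt5 and Nectin3, and Rab4a, Def8 and Rpl13, which lie within the Gm20388 read-through model. Where values moved, the cause was not tested.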

Other observations

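Level stretches also set which genes look rich in peaks. The 3187 intronic peaks belonged to 886 genes, and 10 of these (Gpc4, Reep3, Plekha5, Rps6ka3, Nfib, Ptn, Sox6, Prkar2a, Pde9a and Rbm33) held 878, or 27.5%. Pde9a, a phosphodiesterase gene, had 46 peaks between 21.9 and 23.0. Jam2, a cell adhesion gene, had 35 in its intron 1 between 10.4 and 12.6, and Trak1, an adaptor that carries mitochondria, had 28 in intron 3 between 39.0 and 41.9. In Sox6, 5 peaks on the opposite strand had signals between 9.51 and 9.54. In the 199 introns with 3 or more peaks, 137 of the 2092 peaks had a midpoint that another annotation places in an exon, 105 of them in noncoding exons.

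The widest peak of E11.5 spanned 171265 bp (chr2:176738824-176910088), and the next covered 150782 bp at Srp54b. Only the midpoint of the widest peak was classed as outside the gene models counted, and its whole span was not. A peak of 47092 bp had its midpoint in an intron of Ube2r2, and 1 of 45584 bp in an intron of Tcf12.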
